A study of Mus musculus with 22 samples.

Results

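Genes of the thymic epithelium were followed in RNA-sequencing libraries of Tol and WT mice. They are Foxn1, Psmb11, Prss16, Ccl25, Dll4, Aire, Fezf2, Krt5, Krt14 and Epcam, chosen by name as genes of the thymic epithelium and of central tolerance, and they make up 10 of the 34584 genes listed in each count table. All samples came from C57BL/6 mice. Tol mice carry 1 copy of a transgene encoding a scrambled chain of fluorescent reporter, luciferase and Cre fragments, driven by the broadly active CAG promoter and placed 3′ of Col1a1, and WT mice are littermates without it. Thymus and cerebrum were each sampled from 4 mice per genotype, and cerebellum from 2 Tol mice and 4 WT mice, with library totals from 14543698 to 34776973 estimated counts. The labels name neither the age nor the sex of a mouse, the study's methods give a single range of weeks of age for all animals, and whether the founder line goes back to 1 embryonic stem cell clone is not stated in the study's methods. Thymus is the site where T cells that recognise the body's own proteins are deleted, and the question put to these libraries was whether the Tol transgene altered transcription there.

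The thymic epithelium is the scaffold in which T cells mature. In its cortex, epithelial cells attract lymphoid progenitors, commit them to the T lineage through Notch ligands and display self peptides made by a dedicated proteasome, which selects useful T cells. In its medulla, epithelial cells switch on genes of many peripheral tissues under the regulators AIRE and FEZF2, and T cells that bind those products strongly are deleted or become regulatory T cells. FOXN1 is the transcription factor without which neither compartment forms.

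All 10 genes are protein-coding in the GENCODE vM21 annotation of GRCm38. Foxn1 (ENSMUSG00000002057) lies on the minus strand at chr11:78357577-78386558, Psmb11 (ENSMUSG00000072423) on the plus strand at chr14:54621433-54629556, Prss16 (ENSMUSG00000006179) on the minus strand at chr13:22002173-22009742, and Ccl25 (ENSMUSG00000023235) on the plus strand at chr8:4325210-4360020. Dll4 (ENSMUSG00000027314) lies on the plus strand at chr2:119325784-119335962, Aire (ENSMUSG00000000731) on the minus strand at chr10:78030022-78043610, and Fezf2 (ENSMUSG00000021743) on the minus strand at chr14:12342094-12348189. Krt5 (ENSMUSG00000061527) lies on the minus strand at chr15:101707070-101712898, Krt14 (ENSMUSG00000045545) on the minus strand at chr11:100203162-100207548, and Epcam (ENSMUSG00000045394) on the plus strand at chr17:87635979-87651129. Exons of Aire, Ccl25, Dll4 and Krt5 share 67, 204, 214 and 129 bases with exons of a gene on the opposite strand (Dnmt3l, Elavl1, Gm14207 and Gm44323). The libraries came from a stranded kit, but the strand setting of the counting is not given in the sources used here, so reads over those bases cannot be assigned with certainty.

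FOXN1 is known to bind DNA at a short GACGC core, and start-site windows in RefSeq (GRCm38.p6, 250 bases before to 50 after each start) were searched for it on both strands, GCGTC being the other strand. Windows were found for 9 of the 10 genes, 10 windows in all, since Ccl25 had an upstream and a downstream start. Of these 9 genes 5 held the core in a window, beside 27.2% of all 32851 windows, a share per window and not per gene. Before the start alone, 22.6% of all windows held it. Ccl25 held it 56 bases before its upstream start, and Psmb11 62 bases before a start. The window at the downstream start of Ccl25 did not hold it, and Krt5 held it only 15 bases after its start. The sites of Aire and Fezf2, the regulators of the medulla, lay 189 and 179 bases upstream. The 4 sites are shown because they carry the core before genes of both compartments. Each is 30 bases of the gene's own strand, 5′ to 3′, with the core in capitals, and a match of letters is no evidence of binding.
Ccl25, chr8:4325142-4325171, plus strand: ctttgaagaagcGACGCtcattggttggca
Psmb11, chr14:54625236-54625265, plus strand: agcttctccacaGCGTCctcctcctcctcc
Aire, chr10:78043782-78043811, minus strand: aagagtatcagaGCGTCctgaacccaaagg
Fezf2, chr14:12346027-12346056, minus strand: ctttgaggtagcGCGTCggggacaccccgc

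TATAAA, the TATA box letters, stood in the windows of 2 of the 9 genes, Aire and the downstream start of Ccl25, beside 13.6% of all windows (either strand). These 2 stretches are shown because they are the only ones with these exact letters, 29 bases upstream of the start in Aire and 16 in Ccl25. Near matches were not searched for, so the other genes are not shown to lack a TATA box. Each gives the 130 bases before the start, with TATAAA in capitals.
Aire, chr10:78043611-78043740, minus strand: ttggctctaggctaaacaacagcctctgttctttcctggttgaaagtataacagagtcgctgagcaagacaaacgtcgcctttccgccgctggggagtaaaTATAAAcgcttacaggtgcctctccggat
Ccl25 downstream start, chr8:4349458-4349587, plus strand: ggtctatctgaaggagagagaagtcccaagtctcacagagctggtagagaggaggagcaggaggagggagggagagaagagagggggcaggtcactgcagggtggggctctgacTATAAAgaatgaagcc

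The Tol transcript itself was read first. It stood at 26.7 ± 2.92 CPM (SD, n = 4, CPM being each gene's share of its library's counts in ppm after TMM scaling within the organ) in Tol thymus, at 143 ± 10.6 CPM (SD, n = 4) in cerebrum and at 184 and 135 CPM in both Tol cerebella, and WT libraries held 0 to 2 counts of it. The tissue label was matched by thymocyte genes (Cd3e, Cd4, Cd8a, Cd8b1, Rag1, Rag2, Dntt and Lck), whose summed level was 9651 to 12352 CPM in Tol thymi and 11865 to 13100.0 CPM in WT thymi, and 4.35 to 39.4 CPM in the cerebra, where Cd4 alone gave 36.0 CPM of the highest sum. One Tol thymus (replicate 2) held 10.6 CPM of Pth, the parathyroid hormone gene, whereas the other 7 thymi held 0.0552 to 1.29 CPM, so results below are also given without that library where it matters. Because these are whole organs, fewer cells of a type and less RNA per cell cannot be told apart.

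None of the 10 genes passed an adjusted p of 0.05 between Tol and WT thymus. In these thymi Epcam, the pan-epithelial adhesion molecule, stood 1.19-fold higher in Tol, Dll4, the Notch ligand, 1.21-fold, and Ccl25, the thymic chemokine, 1.12-fold, with adjusted p between 0.0982 and 0.185. Aire was at 0.96-fold and Fezf2 at 1.04-fold, and the 95% intervals of both fell within a log2 difference of 0.29 either way. Of the 10, 8 had a log2 fold change above 0, where 51.4% of all 16248 tested genes did, and their median was 0.11 beside 0.01 over all genes.

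The count of 0 comes from edgeR's quasi-likelihood test, adjusted over all genes tested by the Benjamini-Hochberg method, in which 0.0985% of genes (16) were called. DESeq2 also called 0 of the 10. At an unadjusted p under 0.05, 3 of the 10 were higher in Tol and 0 lower, beside 13.3% of all genes higher and 24.4% in either direction. Without 1 library (Tol thymus 1) Epcam was called, at a log2 fold change of 0.32 (adjusted p = 0.00893), and 2978 genes were called over the whole table in place of 16.

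Foxn1, the master regulator, was at 34.7, 32.7, 34.1 and 33.1 CPM in Tol thymi 1 to 4 and at 28.0, 32.0, 29.5 and 32.2 CPM in WT thymi 1 to 4. Every Tol thymus lay above every WT thymus, by a narrow margin between Tol thymus 2 and WT thymus 4. Its log2 fold change was 0.14 ± 0.07 (SE, adjusted p = 0.241, edgeR). Ranges that do not overlap, with Tol higher, were found for 6.05% of all genes, and for 2 of these 10, Foxn1 and Epcam.

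Psmb11, which encodes the proteasome subunit found in cortical epithelium alone, was at 153, 179, 147 and 160.2 CPM in Tol thymi and at 137, 135, 152 and 148 CPM in WT thymi. Tol thymus 2 was the highest of all, and Tol thymus 3 lay inside the WT range. The log2 fold change was 0.15 ± 0.07 (SE, adjusted p = 0.214, edgeR) and 0.10 without Tol thymus 2. Prss16, a serine protease of cortical epithelium that takes part in making peptides for class II presentation, was at 714, 853, 806 and 798 CPM in Tol thymi and 748, 786, 879 and 848 CPM in WT thymi. The groups lay across each other, with a log2 fold change of -0.05 ± 0.07 (SE, adjusted p = 0.721, edgeR).

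Ccl25, the ligand of CCR9 that draws progenitors and developing T cells to the epithelium, was at 429, 502, 438 and 490.1 CPM in Tol thymi and at 394, 386, 438 and 425 CPM in WT thymi. Tol thymi 2 and 4 stood above the rest and the other 2 overlapped the WT range. Its log2 fold change was 0.17 ± 0.07 (SE, 95% interval 0.01 to 0.33; adjusted p = 0.185, edgeR), and it was 0.10 once the trend of fold change with gene length and GC content was removed. Its receptor Ccr9, carried by thymocytes, had a log2 fold change of -0.32 ± 0.11 (SE, adjusted p = 0.13, edgeR).

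Dll4, the epithelial Notch ligand that fixes T-cell fate, was at 19.2, 17.5, 14.2 and 17.9 CPM in Tol thymi and at 14.6, 11.6, 14.9 and 15.3 CPM in WT thymi. WT thymus 2 was the lowest and Tol thymus 3 fell below 3 of the 4 WT thymi. Its log2 fold change of 0.28 ± 0.12 (SE, 95% interval 0.02 to 0.53; adjusted p = 0.176, edgeR) was the highest of the 10, and leaving out single thymi moved it between 0.20 and 0.36. Endothelium also makes Dll4. The 7 endothelial genes summed to 192 to 201 CPM in Tol thymi and 192 to 195 CPM in WT thymi, with 2 of 7 above 0, and their part in the Dll4 value was not tested.

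Aire, the regulator of peripheral-tissue genes in the medulla, was at 26.2, 22.5, 27.8 and 31.4 CPM in Tol thymi and at 26.5, 31.9, 27.6 and 26.0 CPM in WT thymi. The Tol group held the lowest value and the WT group the highest, and the log2 fold change was -0.06 ± 0.10 (SE, 95% interval -0.29 to 0.17; adjusted p = 0.768, edgeR). Fezf2, the second such regulator, was at 14.8, 16.6, 16.9 and 13.5 CPM in Tol thymi and at 15.6, 15.9, 15.1 and 12.3 CPM in WT thymi. Its 2 groups also overlapped, with a log2 fold change of 0.06 ± 0.10 (SE, 95% interval -0.17 to 0.29; adjusted p = 0.757, edgeR). For Aire the direction turned when Tol thymus 2 or WT thymus 2 was left out (0.02 and 0.01), and for Fezf2 when WT thymus 4 was (-0.02).

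Krt5 and Krt14 encode the keratin pair of medullary and progenitor epithelium. Krt5 was at 185, 214, 192 and 195 CPM in Tol thymi and 177, 224, 178 and 166 CPM in WT thymi, and Krt14 at 38.7, 37.0, 43.1 and 39.8 CPM in Tol thymi and 35.5, 44.7, 34.3 and 33.8 CPM in WT thymi. For both genes WT thymus 2 was the highest of the 8 while the other 3 WT thymi lay below all 4 Tol thymi. The log2 fold changes were 0.07 for Krt5 and 0.09 for Krt14 (SE 0.09 for both, adjusted p = 0.689 and 0.585, edgeR). Without WT thymus 2 they were 0.17 and 0.19, and for Krt14 the sign turned to -0.01 when the length and GC trend was removed.

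Epcam, found on epithelial cells of cortex and medulla, was at 35.6, 45.1, 42.2 and 41.2 CPM in Tol thymi and 34.2, 35.2, 34.4 and 33.2 CPM in WT thymi. The 4 WT thymi lay close together, at a coefficient of variation of 2.36%, and Tol thymus 1 lay just above them. The log2 fold change was 0.25 ± 0.07 (SE, 95% interval 0.09 to 0.41; unadjusted p = 0.00616, adjusted p = 0.0982, edgeR), the lowest p of the 10 and rank 1017 of all genes. Without Tol thymus 2, which held the Pth reads, it was 0.21 (adjusted p = 0.273), and with the length and GC trend removed it was 0.16 (adjusted p = 0.146).

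**Figure D1:**
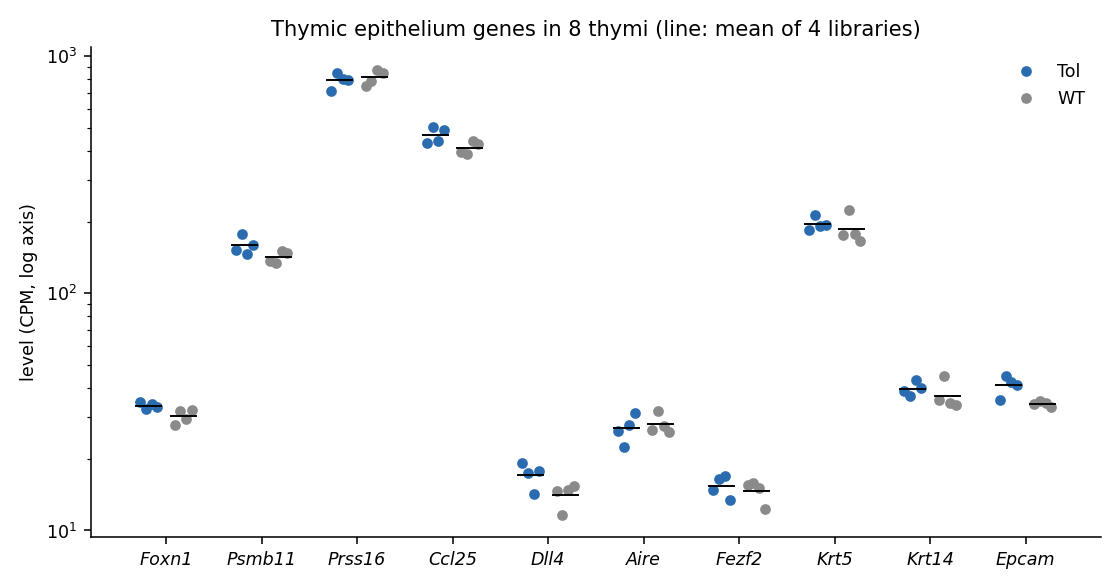
Level of each of the 10 genes in the 4 Tol and 4 WT thymi (y axis, CPM, log axis; 1 point per library, line at the group mean). Tol and WT points lie across each other for most genes, and only Foxn1 and Epcam have 4 Tol points above all 4 WT points.

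Other genes of the same cells and of their neighbours were counted by list. Of 121 such genes tested in thymus edgeR called 0, while 7 were higher and 23 lower in Tol at an unadjusted p under 0.05, beside 13.3% of all genes higher and 11.1% lower. DESeq2 called 10 of them (8.26%, beside 6.85% of all genes, 3.58% higher and 3.27% lower), 9 lower in Tol (Trp63, Mib1, Col1a1, Col1a2, Col3a1, Dcn, Cdh5, Pax5 and Rag1) and 1 higher (Mylpf). Cortical epithelium had 5 of 11 genes above 0 and a median log2 fold change of -0.03, with Cd83, which stabilises class II molecules and is expressed there, at 0.13 (adjusted p = 0.168, edgeR) and the aminopeptidase gene Enpep at -0.15 (adjusted p = 0.196, edgeR). Medullary epithelium had 6 of 12 above 0 and a median of -0.00, with 2 genes higher and 3 lower in Tol at an unadjusted p under 0.05 (edgeR). In that list Trp63, the transcription factor that maintains epithelial progenitors, was at 47.2, 42.1, 54.0 and 43.4 CPM in Tol thymi and 60.0, 65.3, 64.6 and 55.0 CPM in WT thymi. Every Tol thymus lay below every WT thymus, as was the case for 5.57% of all genes, with a log2 fold change of -0.40 ± 0.08 (SE, adjusted p = 0.071, edgeR). Spib, a transcription factor of medullary epithelium and of B and dendritic cells, was at -0.27 (adjusted p = 0.113, edgeR), and Krt5 and Krt14, known TRP63 targets, had the values given above.

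Of 6 thymic tuft cell genes, 5 were tested and 3 lay above 0 (median 0.13). Their lowest p belonged to Dclk1, a kinase gene of tuft cells, at -0.23 and to Pou2f3, the tuft cell regulator, at 0.28 (adjusted p = 0.24 and 0.291, edgeR). Of 13 genes of peripheral tissues that the medulla is known to express, 10 passed the filter on low counts, and 9 of the 10 lay above 0 with a median of 0.36. Among them Gad1, a neuronal enzyme gene, was at 0.86 ± 0.36 (SE, adjusted p = 0.172, edgeR), on 0.489 to 1.63 CPM in Tol thymi and 0.442 to 0.794 CPM in WT thymi. Csn2, the beta-casein gene, was at 0.23 ± 0.10 (SE, adjusted p = 0.187, edgeR), on 17.7 to 21.1 CPM in Tol thymi and 14.4 to 18.8 CPM in WT thymi. Both genes overlapped between the groups, as did the other 8. The largest fold changes of this list belonged to genes with few reads, at SE of 0.27 to 0.41, so the median of 0.36 leans on uncertain values.

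The signals that build the medulla and the cortex were counted the same way. In the RANK, CD40 and lymphotoxin list 5 of 11 genes lay above 0 (median -0.04), with Nfkb2 and Traf6, which act downstream of those receptors, at -0.15 and -0.13 (adjusted p = 0.174 and 0.18, edgeR). Of 12 thymus patterning genes 10 were tested and 1 lay above 0 (median -0.10), with Six4, a homeobox gene of the thymic primordium, at -0.37 (adjusted p = 0.108, edgeR) and Fgfr2, a receptor for mesenchymal growth factors, at -0.19 (adjusted p = 0.216, edgeR). Among Notch and chemokine partners 3 of 11 lay above 0 (median -0.09). Mib1, the ligase that activates Notch ligands such as DLL4, was at 100.2, 80.3, 88.1 and 84.5 CPM in Tol thymi and 113, 106, 102 and 105 CPM in WT thymi, without overlap (5.57% of all genes likewise), with a log2 fold change of -0.28 ± 0.07 (SE, adjusted p = 0.0862, edgeR).

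Markers of the other cells of the organ lay below 0 in several lists, with none past the threshold in edgeR. Mesenchyme had 0 of 7 genes above 0 (median -0.52) and a summed level of 232 to 334 CPM in Tol thymi and 303 to 486 CPM in WT thymi, with Col1a2 at -0.68 and Col3a1 at -0.66 (adjusted p = 0.0832 and 0.0858, edgeR). Dendritic cells and macrophages had 0 of 8 above 0 (median -0.20, summed level 155 to 181 CPM in Tol, 163 to 207 CPM in WT), with Xcr1 at -0.31 and Zbtb46 at -0.26 (adjusted p = 0.155 and 0.185, edgeR). B cells had 2 of 8 above 0 (median -0.16, summed level 90.1 to 99.8 CPM in Tol, 91.3 to 120.4 CPM in WT), with Pax5 at -0.57 and Cd22 at -0.34 (adjusted p = 0.0915 and 0.0959, edgeR). Endothelium had 2 of 7 above 0 (median -0.14, summed level 192 to 201 CPM in Tol, 192 to 195 CPM in WT), with Cdh5 at -0.36 and Esam at -0.20 (adjusted p = 0.0837 and 0.3, edgeR). Thymocytes had 4 of 8 above 0 (median 0.01), with the recombinase gene Rag1 at -0.44 and the T-cell receptor subunit Cd3e at 0.09 (adjusted p = 0.0927 and 0.422, edgeR). Skeletal muscle had 2 of 3 tested genes above 0 (median 0.03), with Mylpf at 0.37 and Myh4 at -0.25 (adjusted p = 0.0834 and 0.585, edgeR). Adipocytes had 0 of 3 (median -0.68, on a summed 1.08 to 29.2 CPM in Tol thymi and 8.90 to 47.9 CPM in WT), with Cidec at -0.80 and Plin1 at -0.68 (adjusted p = 0.465 and 0.582, edgeR), and neither parathyroid gene passed the filter. The part of these cells in the values of the 10 epithelial genes was not tested.

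**Figure D2:**
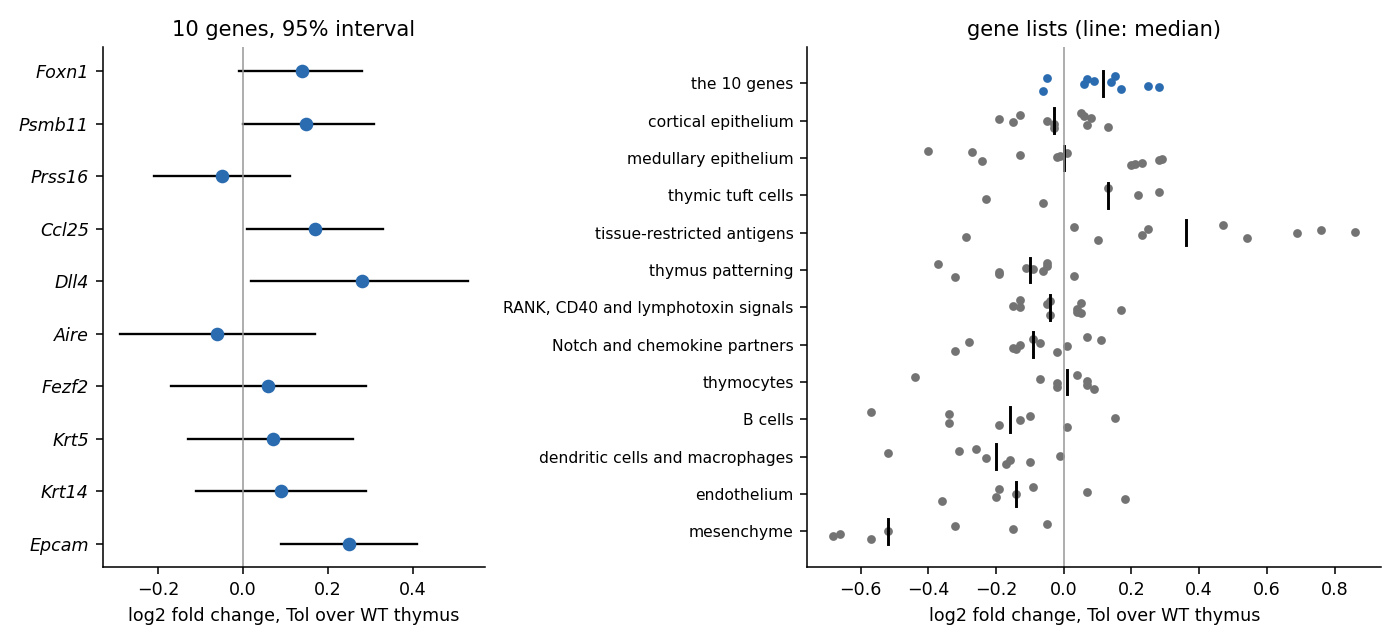
Left, log2 fold change of each of the 10 genes in Tol over WT thymus (x axis; point, edgeR estimate; bar, 95% interval). Right, the log2 fold changes of the tested genes of each list (1 point per gene, line at the median), where the 10 genes have a median of 0.11 and mesenchyme a median of -0.52.

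Across the 8 thymi the epithelial genes did not move as 1 block. Psmb11 and Ccl25 moved together, with Pearson's r of 0.952 (Spearman's rho 0.881, n = 8) on log2(CPM + 1), and 0.912 after each genotype's mean was removed. The ratio of Ccl25 to Psmb11 in CPM stayed between 2.81 and 3.06 in all 8 thymi. Prss16, the third of the cortical genes, followed them within genotype (r = 0.816 with Ccl25 and 0.729 with Psmb11) but less closely over all 8 thymi (0.406 and 0.387). These points share the library and its scaling, and the values are a description with no test. Genes outside the epithelial lists ran closer still to Ccl25. Hddc2, Rpl6 and Ndufb6, picked from the whole table as its closest, had r = 0.987 to 0.990 over the 8 thymi. A high r with Ccl25 was therefore not limited to the cortical genes, and the share of all genes that reach it was not counted.

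Krt5 and Krt14 had r = 0.731 (rho 0.810, n = 8), and Aire and Krt14 r = 0.566 (rho 0.690, n = 8). Between the compartments the values were low or negative, with r = -0.224 for Psmb11 and Krt14 (-0.682 within genotype) and -0.557 for Aire and Psmb11. Within a compartment they were mixed. Aire and Fezf2 had r = -0.153 and Prss16 and Dll4 -0.175 (-0.112 and -0.041 within genotype). By contrast, Krt5 and Fezf2 had 0.581 and Psmb11 and Dll4 0.724 (0.550 and 0.505 within genotype). The genes therefore did not sort cleanly by compartment. The ratio of Psmb11 to Krt14 in CPM ran from 3.01 in WT thymus 2 to 4.82 in Tol thymus 2, so the thymi differed in this ratio within both genotypes. Over all 45 pairs of the 10 genes the median r was 0.188 (-0.041 within genotype), with 27 pairs above 0 and 5 above 0.7.

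**Figure D3:**
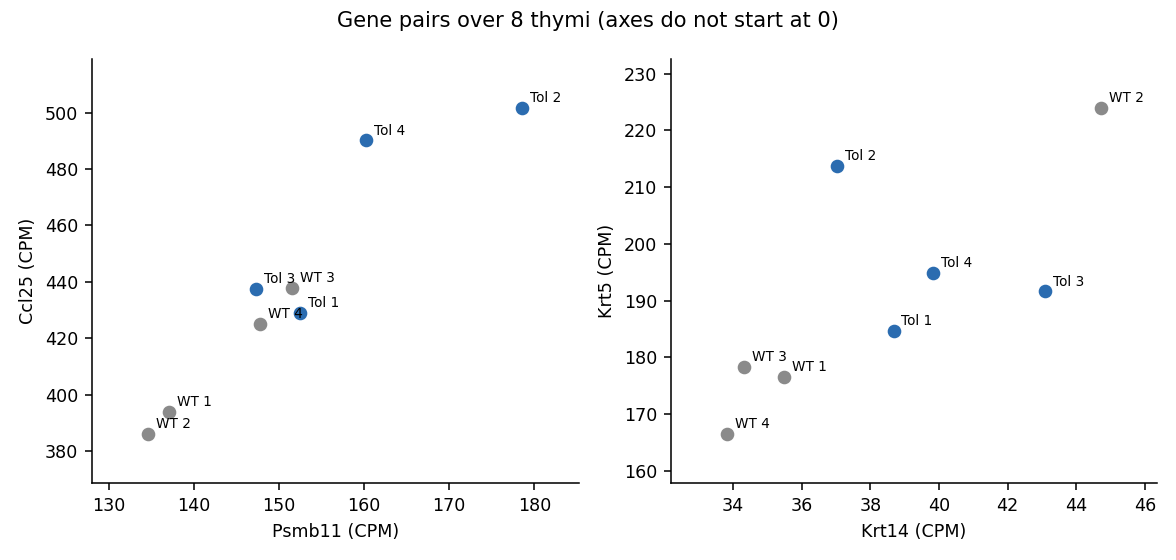
Ccl25 against Psmb11 (left) and Krt5 against Krt14 (right) in CPM, 1 point per thymus, labelled by genotype and replicate, on axes that do not start at 0. The 8 thymi lie near 1 line on the left (r = 0.952), and on the right WT thymus 2 and Tol thymus 2 stand highest for Krt5.

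The genes outside the 10 whose levels ran most like the mean of their standardised levels over the 8 thymi were Vmac (r = 0.988), Lypd6b (r = 0.976), Psors1c2 (r = 0.974), Lyrm4 (r = 0.972) and Tmsb10 (r = 0.971). With 8 libraries and a whole table to choose from, such values are high by selection. Vmac, the closest, ran from 23.0 to 28.0 CPM in Tol and from 19.2 to 23.0 CPM in WT thymi. For the 3 most abundant genes taken singly, the closest were Zfp213, Anapc4 and Pex13 for Prss16 (r = 0.938 to 0.945), Hddc2, Rpl6 and Ndufb6 for Ccl25 (r = 0.987 to 0.990), and Alox12e, Gm13123 and Sema4a for Krt5 (r = 0.951 to 0.980).

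Set in order by level per length in WT thymus (RPKM, CPM per kilobase of merged exons), Prss16 was highest at 195 ± 14.2 RPKM (SD, n = 4), followed by Krt5 at 84.8 ± 11.7 RPKM and Ccl25 at 55.2 ± 3.32 RPKM. Psmb11 (29.8 ± 1.70 RPKM), Krt14 (21.1 ± 2.92 RPKM) and Epcam (15.6 ± 0.368 RPKM) came next. The regulators were lower, with Foxn1 at 9.47 ± 0.632 RPKM, Aire at 7.32 ± 0.706 RPKM and Fezf2 at 4.84 ± 0.535 RPKM, and Dll4 was last at 3.66 ± 0.439 RPKM. No neighbours in this order overlapped over the 4 WT thymi, although Fezf2 and Dll4 nearly met (4.05 and 3.98 RPKM). The order rests on the length used, since by the longest transcript Ccl25 stood at 161 RPKM, above Krt5.

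Outside the thymus, 9 of the 10 genes were lower in both WT cerebrum and WT cerebellum. Fezf2 was the exception in cerebrum but not in cerebellum. All 10 entered a fit over the 12 WT libraries on 1 common scale, several of them only through the thymus, so their number called is no result. Of the 5 that also passed the filter within cerebrum, Psmb11, Prss16, Ccl25 and Dll4 were called higher in thymus than in cerebrum, where 43.4% of 17413 genes were, and Fezf2 lower. The first 4 also passed it within cerebellum and were called higher in thymus than there, where 41.8% were. Whether organs came from the same mice is not stated in the labels, and the fit takes the 12 libraries as independent. The cortical genes Psmb11, Prss16 and Ccl25 had log2 differences over cerebrum of 6.38 ± 0.12, 8.57 ± 0.24 and 5.28 ± 0.15 (SE, adjusted p = 1.95e-13, 3.17e-12 and 3.86e-12, edgeR). Dll4, which brain vessels also make, had the smallest of the 4, at 2.09 ± 0.13 (SE, adjusted p = 8.97e-09, edgeR). A call between whole organs of such different make-up is common, as the background shares show.

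The keratins and Foxn1 were near or under the floor of 3 counts in brain. Krt14 held 0 counts in all 8 cerebra, against 552 to 1330 in each thymus, so WT thymus was at least 177-fold higher on a floor of 3 counts per library. Krt5 held 7 counts in the 4 WT cerebra together and 14840 in the 4 WT thymi, a scaled ratio of 1521 (95% counting interval 738 to 3784). Foxn1 held 1 count in the 4 WT cerebra and 2481 in the WT thymi, a scaled ratio of 1780.1 (319 to 70338). Both genes stood at or under the floor on average in cerebrum, and the intervals cover counting error only.

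Aire and Epcam gave a few reads in brain. Aire held 2 to 6 counts per WT cerebrum and 3 to 9 per WT cerebellum, a level 89.3-fold (56.4 to 151) and 86.3-fold (59.2 to 131) below WT thymus by summed counts. Epcam held 0 to 8 counts per WT cerebrum and 3 to 6 per WT cerebellum. Ccl25 was the most abundant of the 9 in brain, at 8.02 ± 1.18 CPM in WT cerebrum and 10.03 ± 2.02 CPM in WT cerebellum (SD, n = 4). Its exons share 204 bases with Elavl1 on the other strand, a gene used in most cells, and the part of that overlap in its brain reads was not tested.

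Fezf2 is also known in the cerebral cortex, as the regulator that specifies deep-layer projection neurons. In WT cerebrum it was at 37.8, 21.2, 13.1 and 39.2 CPM and in WT cerebellum at 0 to 2 counts. On the common scale WT thymus lay below WT cerebrum by a log2 difference of -1.33 ± 0.29 (SE, adjusted p = 0.000944, edgeR), a direction shared by 40.9% of genes. Between WT cerebrum and cerebellum, where 51.1% of genes were called, Fezf2 held 2175 against 4 counts, and Prss16 was called with a log2 difference of 0.86 ± 0.26 (SE, adjusted p = 0.0158, edgeR).

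**Figure D4:**
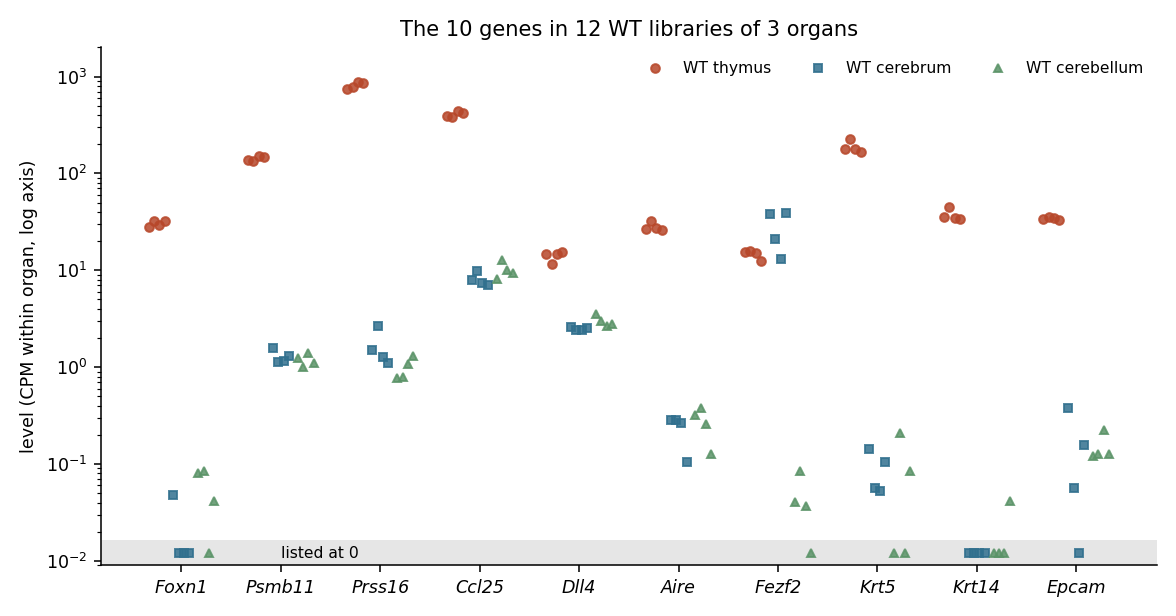
Level of each of the 10 genes in the 12 WT libraries (y axis, CPM scaled within each organ, log axis; 1 point per library; the grey band holds libraries listed at 0). Thymus points lie above all brain points for 9 genes. For Fezf2, cerebrum overlaps or exceeds thymus on this scaling within each organ, and cerebellum holds 0 to 2 counts. On the common scale over the 12 WT libraries the Fezf2 ranges do not overlap, and thymus lies below cerebrum.

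In the brain of Tol mice none of the genes tested differed from WT past the threshold. Of the 10, 5 passed the filter in cerebrum and 4 in cerebellum, and 0 were called in either, where 0% of all 15596 and 16662 genes were. DESeq2 called 0 of them as well, and at an unadjusted p under 0.05 there were 0 in both organs, beside 9.66% and 3.16% of all genes. In cerebrum the log2 fold changes were -0.02 for Ccl25, 0.19 for Dll4, -0.39 for Prss16, 0.14 for Psmb11 and -0.44 for Fezf2 (SE 0.12, 0.14, 0.30, 0.18 and 0.38, adjusted p from 0.7 to 0.979, edgeR).

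The spread of Fezf2 between cerebra was wide within both genotypes. The Tol cerebra held 24.2, 15.5, 29.8 and 11.98 CPM beside the WT values above, and its coefficient of variation was 39.9% in Tol and 45.8% in WT, against 10.3% and 11.1% in thymus. Of the other genes of deep cortical layers, Crym (r = 0.890, rho 0.833, n = 8) and Ldb2 (r = 0.852, rho 0.881, n = 8) ran with it, while Foxp2 ran opposite (r = -0.792, rho -0.738, n = 8) and Tle4 did too (r = -0.687, n = 8). Bcl11b (r = -0.239) and Tbr1 (r = -0.156) followed it little. Crym and Tbr1 are those with the lowest p between genotypes (-0.99 and 0.14, adjusted p = 0.654 and 0.744, edgeR), and the remaining ones were picked once their values had been looked at.

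The cerebra with the least Fezf2, Tol cerebrum 4 and WT cerebrum 3, held 35.6 and 40.9 CPM of Foxp2 and 138 and 189 CPM of Bcl11b, the highest of the 8 for both genes. Foxp2 and Bcl11b are also known from neurons of the striatum. The part of the brain region sampled in the Fezf2 values was not tested.

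**Figure D5:**
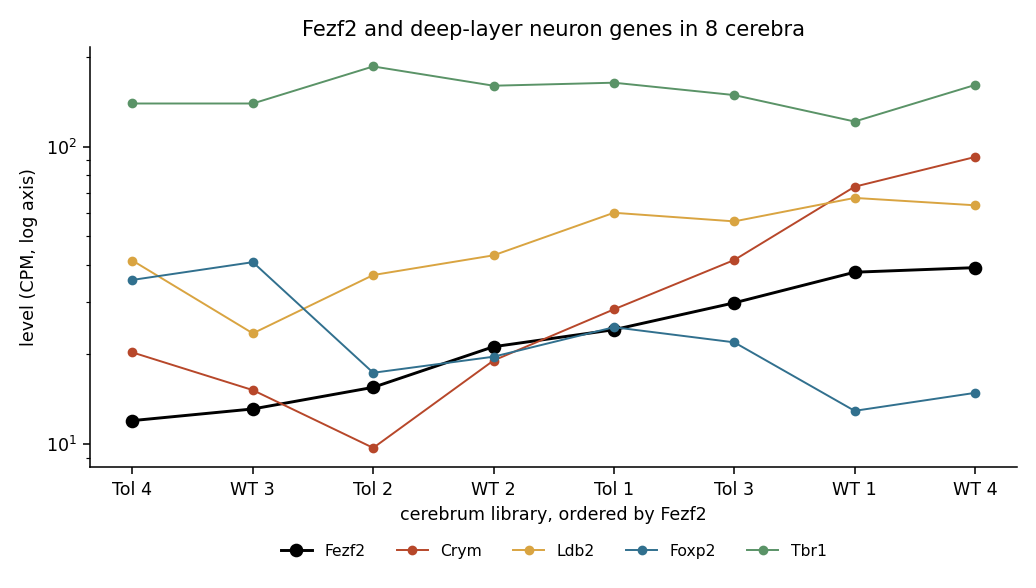
Level of Fezf2 and of 4 other genes of deep-layer cortical neurons in the 8 cerebra (y axis, CPM, log axis), ordered from the lowest to the highest Fezf2 level. Tol and WT cerebra are mixed along the order, Crym and Ldb2 run upward with Fezf2, and Foxp2 runs downward.

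In cerebellum the 2 Tol libraries held 7.60 and 7.08 CPM of Ccl25, below the WT range of 8.06 to 12.8 CPM, a log2 fold change of -0.43 ± 0.22 (SE, adjusted p = 0.957, edgeR), and ranges without overlap with Tol lower were found for 5.03% of all genes. Dll4 was at 0.32, Psmb11 at -0.28 and Prss16 at -0.82 (SE 0.20, 0.29 and 0.76, adjusted p = 0.957 for each, edgeR). Prss16 rests on 1 library, since Tol cerebellum 2 held 3 counts and Tol cerebellum 1 held 25, and the value was 0.01 without Tol cerebellum 2 and -2.99 without Tol cerebellum 1. Levels of choroid plexus and mesenchymal marker genes differed between the cerebellum libraries as well. Choroid plexus genes summed to 10.6 and 17.9 CPM in the Tol cerebella and ran from 13.7 to 4548 CPM in the WT cerebella. Mesenchymal genes summed to 178 and 339 CPM in Tol cerebella, with 124 to 174 CPM in WT cerebella. In cerebrum 3 choroid plexus genes were tested and 0 lay above 0, with Kl at -0.37 and Ttr at -0.59 (adjusted p = 0.863 and 0.895, edgeR). The part of these tissues in the values of the 10 genes was not tested.

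An interaction term over the 16 thymus and cerebrum libraries, taken as independent, compared the Tol effect in the 2 organs. It could be read for the 5 genes that passed the filter in cerebrum as well, and 0 of these 5 passed the threshold, where 0.107% of 17774 genes did. DESeq2 called 0 of them, and 0 had an unadjusted p under 0.05, beside 16.5% of all genes. The difference of the log2 fold changes was -0.09 ± 0.18 for Dll4 and -0.50 ± 0.42 for Fezf2 (SE, adjusted p = 0.86 and 0.598, edgeR). The other 5 entered only through the thymus and could not be tested for such a difference. Among them Krt14 held 0 counts in all 8 cerebra, and Foxn1, the only one of the 10 with an unadjusted p under 0.05 (0.0043, adjusted p = 0.136, edgeR), held 11 counts in the 4 Tol and 1 count in the 4 WT cerebra, an average of 3 or fewer per library in both groups, so no fold is given.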

How the data were processed

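Poly(A) RNA was sequenced from frozen thymus, cerebrum and cerebellum with a stranded kit. Per the labels and methods, the authors quantified reads with Salmon 0.14.1 against GRCm38 transcripts plus the Tol sequence and deposited estimated counts (expected counts) per gene, not normalized, as whole numbers in 1 table per organ of 34585 entries. The Ensembl release, the way transcripts were summed to genes and the strand setting are not given in the sources used here. No rounding was needed. The Tol row was kept in the fits and not counted as a gene. The study's methods name edgeR 3.9.

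From the deposited counts, edgeR 4.0.16 in R 4.3.3 was run with TMM scaling, filtering by filterByExpr and its quasi-likelihood test, adjusted over all genes by the Benjamini-Hochberg method with a threshold of 0.05, within each organ, over the 16 thymus and cerebrum libraries for the interaction, and over the 12 WT libraries for organs. The labels do not tie organs to mice, so libraries of different organs were taken as independent. RPKM used merged exon lengths (GENCODE vM21, which held 34530 of the entries). Of symbols shared by several identifiers (Ccl19 and Ccl21a, which have near-identical copies) the one with most counts was used, so their values are uncertain. Mucl2 was found through its synonym Spt1. Likeness used log2(CPM + 1). Counting intervals are at 95%, and 3 counts per library was the floor, both covering counting error only. Library totals from 14543698 to 34776973 set the precision, and the biological coefficient of variation was 11.2% for thymi, 16.6% for cerebra and 33.2% for cerebella. Chi-square divided by its degrees of freedom was 4.98 to 208 for pairs of libraries in a group, above sampling noise, and each library counts once.

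The 10 genes and the gene lists were chosen with earlier results of these data known. Besides the 10 and the Tol transcript, the text names the 2 genes of each list with the lowest p in thymus (cerebrum for brain lists), the 5 genes most like the 10, and the 3 most like each of the 3 most abundant. Outside this rule, the other genes DESeq2 called, Cd4, Pth and 4 deep-layer genes were named once their values were known. The alternatives were DESeq2 1.42.0 and its size factors in edgeR, a fit with robust moderation, a filter of 10 counts per library or none, a joint fit of all 22 libraries, the replicate number as a block, removal of the length and GC trend, thinning to the smallest total, and leaving out each library. The test was checked on counts simulated with larger changes than those of the 10 genes in thymus, so the check does not cover changes that small.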

Additional observations from a re-analysis of the deposited data

Results flagged for a closer look

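Of 42 groups of 4 libraries examined for the 10 genes, 3 held a library far from the other 3, where chance alone gives about 2.1 (1 in 20). Krt14 in WT thymus 2 was at 44.7 CPM (789 counts), while the other WT thymi held 33.8 to 35.5 CPM, and Krt5 was also highest there. Aire in WT cerebrum 4 was at 0.104 CPM, on 2 counts, while the other WT cerebra held 0.263 to 0.285 CPM. Epcam in WT cerebellum 3 was at 0.223 CPM, on 6 counts, while the other WT cerebella held 0.121 to 0.126 CPM. The brain values are near the floor of 3 counts.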

How the results depend on the processing

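Of 45 fold changes of the 10 genes, recomputed 820 times in all, 791 kept their direction and their side of the threshold, 1 passed it and 28, over 11 genes and contrasts, changed sign. The 45 include WT thymus against WT brain, where the large differences left little room for a change. They also include Aire and Epcam in fits that these genes entered through the thymus alone. The tally therefore says little about the Tol effects by themselves. The genes called among the 10 in thymus stayed at 0 except without Tol thymus 1 (leaving out single libraries gave 0 to 1). Called genes over the whole thymus table (16) came to 130 with no filter, 85 with at least 10 counts, 38 with robust moderation, 1112 with DESeq2, 29 with all 22 libraries in 1 fit, 78 with the length and GC trend removed, and 0 to 2978 leaving out single libraries (0 without Tol thymus 2 or 4 or WT thymus 1, 2 or 3). In cerebrum (0) they came to 177 with DESeq2, 25 with all 22 libraries and 0 to 7 without single libraries. In cerebellum (0) they came to 8 with DESeq2 and 0 to 2 without single libraries. For the interaction (19) they came to 48 with at least 10 counts, 385 with DESeq2 and 2 to 1116 without single libraries. Counted over all 10, of which several entered through the thymus alone, calls between WT organs were 10, 10 and 2. With at least 10 counts in every library 4 were called between thymus and cerebrum, 4 between thymus and cerebellum and 1 between cerebrum and cerebellum, since fewer of them were tested. Leaving out single libraries turned the sign of Prss16 (-0.08 to 0.00), Aire (-0.14 to 0.02) and Fezf2 (-0.02 to 0.12) in thymus, of Ccl25 in cerebrum (-0.08 to 0.09), of Prss16 in cerebellum (-2.99 to 0.01), of the interaction of Aire (-0.27 to 0.16), Epcam (-0.34 to 1.12) and Psmb11 (-0.07 to 0.10), and of Aire (-0.29 to 0.17) and Epcam (-0.88 to 0.58) between WT cerebrum and cerebellum. Krt14 in thymus turned to -0.01 with the length and GC trend removed. The cause was not tested.

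Tol and WT mice with the same replicate number are different mice. In thymus the numbers did not pair them, with same-numbered deviations correlated at -0.178 to 0.068. The correlations were -0.414 to 0.494 in cerebrum (2 of 4 over 0.1) and -0.203 to 0.682 in cerebellum (1 of 2). No thymus, 2 of 4 cerebra and 2 of 2 cerebella correlated best with their own number. Between organs of 1 genotype the values ran from -0.012 to 0.117, and 3 of 4 WT pairs of thymus and cerebrum correlated best with their own number. For Tol thymus and cerebrum this was 1 of 4, and for WT cerebellum with either other organ 2 of 4. With the replicate number as a block 5 genes were called in thymus, 7 with the length and GC trend also removed (Krt14 at -0.01), and 4 for the interaction, and 0 of the 10 genes in each. DESeq2's size factors moved the median of all genes by at most 0.05 on the log2 scale. The longest transcript in place of merged exons moved the RPKM of 6 of the 10 genes by more than 1 SD. The cerebella, with 2 Tol libraries, and genes with a few counts in brain limit what could be seen there.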
